A study of Mus musculus with 10 samples.

Results

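Small nucleolar RNAs (snoRNAs) of 100 nt or less were followed in a small RNA sequencing data set from CD43- splenic B-cells of the mouse. The RNAs described here are the rows of the count table typed as snoRNA whose listed coordinates span at most 100 nt and whose counts, summed over the 10 libraries, reached 100. The rule was met by 107 of 695 snoRNA rows and of 6968 rows in all, and 181 snoRNA rows were short enough before the limit on counts. Since these RNAs were selected on summed counts, their abundance is given as a description only. The last ones inside the limit, Gm24568 and Gm22447, had 136 counts each, and the first ones outside, Gm22771 and Snord64, had 99 and 79. On length the longest inside were Snord7 (97 nt) and Snord83b (94 nt), and the shortest rows outside with 100 counts or more measured 102 nt.

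The cells came from wt mice, from mice without the 3′RR (3′RR-deficient, the regulatory region at the 3′ end of the IgH locus) and from mice without Eµ (Eµ-deficient, the enhancer in the intron upstream of Cµ). They were either non-stimulated (NS) or stimulated with 5 µg/ml lipopolysaccharide (LPS), and per the labels both kinds were kept in culture for 2 days. The study's methods instead describe cells taken before and after stimulation, and if NS cells were not cultured, LPS and culture cannot be told apart in any LPS comparison. Each condition had 2 libraries for wt and 2 for 3′RR-deficient cells but 1 for Eµ-deficient cells, and each library holds RNA of 2 mice, so that a replicate is a pool. By the study's methods, NS and LPS libraries of a genotype may hold RNA of the same mice. No label says so, and the main tests treat these libraries as independent. The mice carry the deletions, and their cells developed without the element. In bulk RNA, fewer cells of a type and less RNA per cell cannot be told apart.

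Short snoRNAs are mostly of the box C/D class. Such an RNA carries a box C near its 5′ end and a box D near its 3′ end, is bound by fibrillarin, Nop56, Nop58 and Snu13, and base-pairs with ribosomal or spliceosomal RNA to place a 2′-O-methyl group. A few, above all U14 (the Snord14 family), are needed for cleavage of the ribosomal RNA precursor. In vertebrates they are cut out of introns of host genes, many of which encode ribosomal proteins or nucleolar factors or, like Gas5 and the Snhg genes, no protein at all. B-cells that enter division after LPS make many ribosomes, which is the setting in which this class is of interest.

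The class name was checked against the sequences. Transcript sequences of GENCODE M21 (GRCm38) were found at the same position for 101 of the 107 RNAs. The motif TGATGA (box C) began within the first 15 nt of 60 of them and CTGA (box D) stood within the last 15 nt of 86, read on the strand of the RNA, and 55 (54.5%) had both. Of 478 longer snoRNA rows with a sequence, 13 (2.72%) had both motifs. The ACA trinucleotide that lies 3 nt from the end of box H/ACA snoRNAs was present in 6 of the 101 (5.94%) and in 186 of the longer rows (38.9%). By symbol 47 were Snord genes, 2 were Scarna genes, which act in Cajal bodies, and 53 carried a provisional Gm name. An annotated host gene on the same strand enclosed 97 of the 107, and these lay in 51 hosts, of which 22 held 2 or more of them.

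The sequences below, from GENCODE M21, belong to the RNAs on which the results turn, with box C and box D in capitals where the exact letters occur. The first group is U14, 3 copies in introns of Hspa8 and Snord14a in Rps13, all of which rose with LPS.
Snord14c, chr9:40803583-40803668, plus strand: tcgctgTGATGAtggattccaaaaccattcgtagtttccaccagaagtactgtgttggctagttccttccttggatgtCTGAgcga
Snord14d, chr9:40803995-40804080, plus strand: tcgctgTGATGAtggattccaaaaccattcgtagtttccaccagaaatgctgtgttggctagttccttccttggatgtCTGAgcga
Snord14e, chr9:40804748-40804837, plus strand: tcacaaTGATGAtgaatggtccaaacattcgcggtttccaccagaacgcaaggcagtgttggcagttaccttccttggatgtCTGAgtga
Snord14a, chr7:116333171-116333257, minus strand: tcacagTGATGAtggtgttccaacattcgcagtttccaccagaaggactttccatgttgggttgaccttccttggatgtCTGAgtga

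A second group comes from introns of Gas5, where both directions of change were met.
Mir5117, chr1:161037356-161037439, plus strand: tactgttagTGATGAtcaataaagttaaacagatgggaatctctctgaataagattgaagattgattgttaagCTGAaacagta
Gm22489, chr1:161035850-161035911, plus strand: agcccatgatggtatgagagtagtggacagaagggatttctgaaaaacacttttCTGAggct

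The third group holds the 4 RNAs with the largest differences between Eµ-deficient and wt cells, and a relative of 1 of them, Gm23201. Gm24123, with no annotated host, shares a stretch of 36 identical bases with Gm23201 in Zfas1 and lacks the 3′ CTGA of its relative.
Snord72, chr15:5118404-5118484, plus strand: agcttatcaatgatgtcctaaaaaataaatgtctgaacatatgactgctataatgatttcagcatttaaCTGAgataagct
Snord4a, chr11:78181686-78181756, minus strand: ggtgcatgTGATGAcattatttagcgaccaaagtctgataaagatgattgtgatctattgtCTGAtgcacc
Gm24123, chrX:93164902-93164984, plus strand: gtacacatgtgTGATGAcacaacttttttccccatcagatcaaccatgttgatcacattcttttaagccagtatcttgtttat
Gm23201, chr2:167064998-167065086, plus strand: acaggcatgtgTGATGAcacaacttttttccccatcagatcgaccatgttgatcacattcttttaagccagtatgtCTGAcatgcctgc
Snord45b, chr3:153910563-153910633, minus strand: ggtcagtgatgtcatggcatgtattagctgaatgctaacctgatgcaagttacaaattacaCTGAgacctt

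Near-identical copies limit what a single row can say. A stretch of 20 or more identical bases linked 40 of the 107 RNAs into 16 families. Snord14c and Snord14d, with 46 bases in common, had 281485 and 277355 counts. Snord58b in Rpl17 and Gm22354, which has no annotated host, share 55 bases and had 30953 and 30404 counts. How reads with several matches were counted is not given in the sources used here, so the members of such a family are not separate observations.

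The libraries held between 3482540.0 and 18144016 counts. The short snoRNAs took 2.83% and 7.63% of the counts in the wt NS libraries and 2.58% and 5.27% in the 3′RR-deficient NS ones. The LPS libraries gave 4.11% and 3.53% for wt, and 6.17% and 3.00% for the 3′RR deletion. The highest share of each condition was that of the Eµ-deficient library, 9.32% without (Wilson 95% interval 9.30 to 9.34) and 7.96% with LPS (7.95 to 7.98). The second NS libraries of wt and 3′RR-deficient cells stood apart from the first. They were the shallowest and held 63.9% and 67.5% microRNA counts against 82.1% and 81.0% in the first. The replicate differences of the short snoRNAs correlated between wt and 3′RR-deficient cells across the 107 RNAs, with r = 0.50 for NS and 0.65 for LPS. The summed share of LPS and NS libraries differed by less than the spread (4.95% ± 2.07 against 5.53% ± 2.95, SD, n = 5 each, two-sided exact permutation p = 0.722), and so did that of 3′RR-deficient and wt libraries (4.26% ± 1.74 against 4.53% ± 2.14, SD, n = 4 each, exact permutation p = 0.886).

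**Figure D1:**
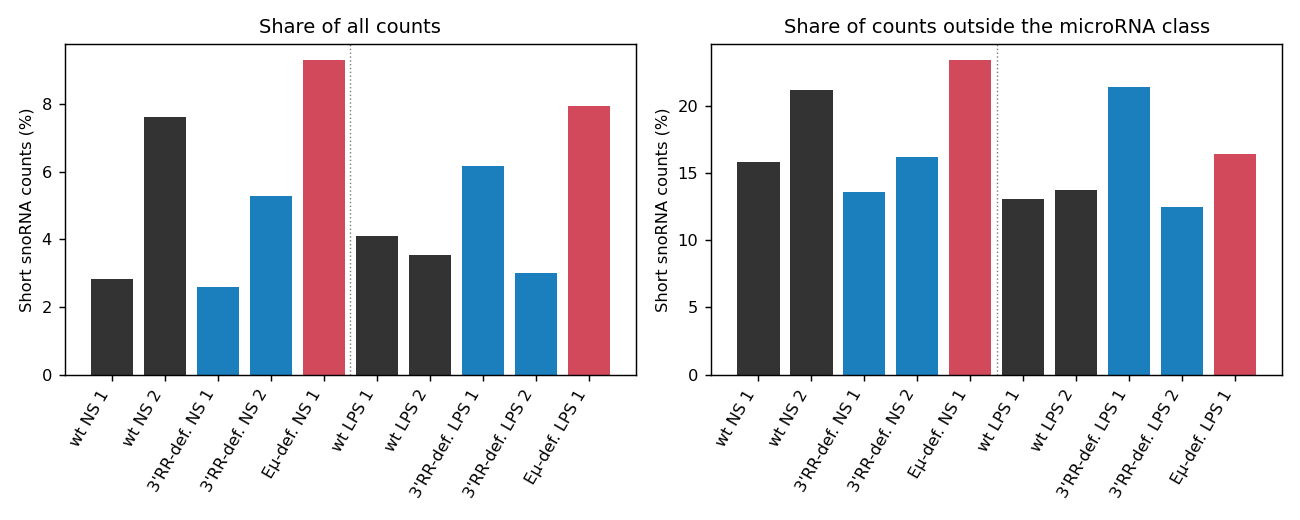
Bars give the counts of the 107 short snoRNAs in each library as a percentage of all its counts (left) and of its counts outside the microRNA class (right), with NS libraries left and LPS libraries right of the dotted line, and no error bar since a bar is 1 library. The Eµ-deficient libraries stand highest of their condition on the left (9.32% and 7.96%), while on the right the LPS one (16.4%) lies below the first 3′RR-deficient LPS library (21.4%).

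Levels are given below as CPM, counts scaled to a common library size with TMM factors from the whole table. The mean over the 10 libraries ran from 1.07 CPM to 11274 CPM with a median of 136.3, and 10 RNAs were at 1000 or above, 53 between 100 and 1000, 31 between 10 and 100 and 13 below 10. The 8 most abundant by summed counts held 62.3% of all short snoRNA counts, and between 53.0% and 77.9% by library. Of these 8, Gm25789 had 118484 and 86674 of its 269328 counts in the Eµ-deficient NS and LPS libraries, and Gm26224 71991 and 50645 of 184312. Snord85 alone held 19.0%, between 4.51% in the second 3′RR-deficient LPS library and 32.03% in the Eµ-deficient NS library. The 9 RNAs of Gas5 introns together held 29.5%, between 16.3% in the first 3′RR-deficient LPS library and 51.9% in the second 3′RR-deficient NS library. Gas5 is a non-coding host that is known to build up in growth-arrested cells.

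Of the 8 most abundant, Snord85 and the Gas5 RNA Gm23212 alternated as the highest in the NS libraries. The NS level of Snord85 was 12133 and 11556 CPM for wt, 11683 and 8055 for the 3′RR deletion and 48717 for the Eµ deletion, against 4639 and 2061, 3024 and 1097, and 9778 with LPS. Within each genotype every LPS library lay below every NS library. Gm23212 without LPS was at 2293 and 17695 CPM for wt and 5560.3 and 14462 for the 3′RR deletion, so that the second libraries were several times the first, and at 2494 in Eµ-deficient cells. Snord104, with no annotated host, ran from 1314 to 5758 CPM without LPS and from 2539.6 to 10684 with LPS. The groups of Snord104 and Gm23212 overlapped, and neither passed the test for LPS (log2 fold change 0.54, adjusted p = 0.613, and -0.80, adjusted p = 0.424). The others of the 8 were Gm22489, Gm25789 and Gm26224 of Gas5, Snord14c and Snord14d.

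The first comparison asked how the short snoRNAs respond to LPS, with all 3 genotypes in 1 fit. With LPS 12 of the 107 rose (11.2%) and 19 fell (17.8%), at an adjusted p under 0.05 from edgeR over all rows tested. Over the 4554 rows tested 4.02% rose and 4.04% fell, and over rows with 100 counts or more 4.77% and 4.64%. U14 copies and the RNAs of Rps3a1 were among those that rose, and Snord85, RNAs of Rpl17 and the Snord1 family among those that fell. The median log2 fold change was -0.37, against 0.02 over all rows tested. It was above 0 under 3 of the 4 other scalings, but below the median over all rows in each. The values were 0.10 against 0.45 with total counts, 0.18 against 0.53 with microRNA rows and 0.31 against 0.74 with snoRNA rows. With DESeq2 size factors it was -0.45 against -0.08. For longer snoRNA rows 2 of 209 rose and 28 fell, with a median of -1.24. All 107 passed the filter on low counts, but 10 had fewer than 100 counts in the NS libraries together and 2 in the LPS libraries together.

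The balance of rises and falls depended on the scaling of the libraries. With total counts 19 rose and 8 fell, with TMM factors from microRNA rows 21 and 9, from snoRNA rows 26 and 7, and with DESeq2 size factors 10 and 19. Over all rows tested 533, 598, 921 and 356 were called under these scalings, in the same order, against 367 with TMM, while the calls among the short snoRNAs stayed between 27 and 33. These scalings moved the median log2 fold change of all rows from 0.02 to as much as 0.74. Under all 5 scalings 16 RNAs passed with the same direction, 10 higher and 6 lower. The 10 were Snord14c, Snord14d, Snord14e, Snord14a, Snord73a, Gm24916, Mir5117, Gm25878, Gm25970 and Gm24463, and the 6 were Snord85, Snord58b, Gm22354, Snord4a, Snord111 and Gm22888. Without both second NS libraries 10 rose and 36 fell, with 581 calls over all rows, and 29 of the 31 calls remained. Without the Eµ-deficient libraries 9 rose and 10 fell, with 204 calls over all rows.

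**Figure D2:**
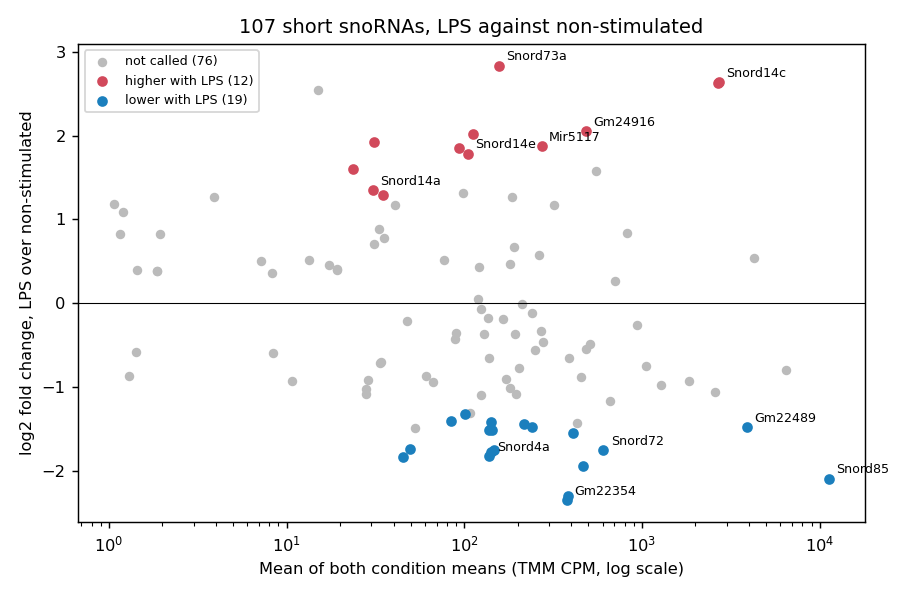
Each point is 1 of the 107 short snoRNAs, with its mean level in CPM on a log axis and its log2 fold change for LPS over NS in all genotypes on the vertical axis, red where it rose (12) and blue where it fell (19) at an adjusted p under 0.05. Rises reach 2.84 (Snord73a) and falls -2.36 (Gm22354), and the most abundant, Snord85, is among the falls.

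U14 rose in all 4 of its copies. Snord14c was at 1079.9 and 527.9 CPM in wt NS, 773.3 and 459.6 in 3′RR-deficient NS and 656.8 in Eµ-deficient NS cells. With LPS it was at 3290.5 and 2741, at 11377 and 2938, and at 3304. Every LPS library lay above every NS library, and the first 3′RR-deficient LPS library stood far above the rest. The rise of Snord14c came to 2.64 in log2 (SE 0.51, adjusted p = 0.0107), and that of Snord14d to 2.63 (SE 0.51, adjusted p = 0.0107). Snord14e, the third copy in Hspa8, went from 31.3 to 64.9 CPM without LPS to 103.8 to 220.0 with LPS (1.79, SE 0.33, adjusted p = 0.00988). Snord14a in Rps13 went from 13.1 to 23.6 CPM to 27.2 to 60.2 (1.35, SE 0.30, adjusted p = 0.0180). The calls of the Hspa8 copies held in all 10 fits that left out 1 library, and that of Snord14a in 5, being lost without the first wt NS, second wt LPS, first 3′RR-deficient NS or either Eµ-deficient library. The groups did not overlap for any of these, which held for 8 of the 107 RNAs in the direction of a rise and for 6.04% of all rows. Hspa8 encodes the constitutive heat shock cognate chaperone and Rps13 a protein of the small ribosomal subunit, and the 2 hosts lie on different chromosomes.

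**Figure D3:**
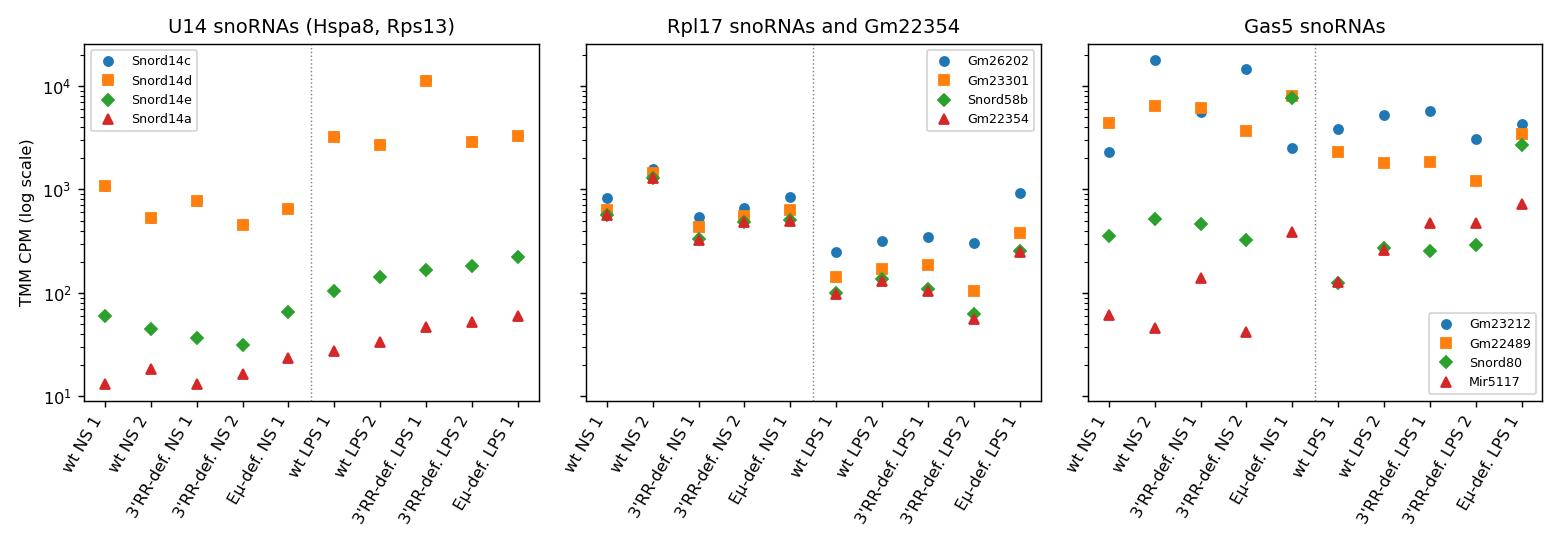
Points give the TMM CPM (log axis) of 4 RNAs in each of 3 groups (U14, the Rpl17 RNAs with Gm22354, and Gas5) for every library, with NS libraries left and LPS libraries right of the dotted line (Snord14c lies under Snord14d). All U14 copies stand higher with LPS, Snord58b, Gm23301 and Gm22354 stand lower, and within Gas5 Gm22489 falls while Mir5117 rises.

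The other RNAs that rose and met the rule for naming came from different hosts. Gm24916 (chr14:31015148-31015226), in an intron of Gnl3, which encodes nucleostemin, was at 181.0 and 132.9 CPM in wt NS and at 1065 and 904.5 in wt LPS cells. In 3′RR-deficient cells it was at 331.1 and 108.8 against 739.0 and 520.5, and in Eµ-deficient cells at 181.1 against 689.4. It rose by 2.05 in log2 (SE 0.40, adjusted p = 0.0115) and passed in each fit that left out 1 library. The 2 other RNAs of Gnl3 did not pass, Snord69 at -0.75 (adjusted p = 0.378) and Snord19 at -0.90 (adjusted p = 0.139). Gm25970 (chr12:65056573-65056658) in Prpf39, a splicing factor gene, ran from 2.81 to 28.3 CPM without and from 29.6 to 71.8 with LPS (1.92, SE 0.50, adjusted p = 0.0355), and its call was lost when either wt LPS library or any of the 4 3′RR-deficient libraries was left out. Gm24463 (chr9:89075336-89075407), with no annotated host, ran from 7.61 to 15.4 CPM and from 27.3 to 42.7 (1.60, SE 0.32, adjusted p = 0.0124).

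Rises that did not meet the naming rule, since a library overlapped, are given after their values were seen. Snord73a and Rnu73b, both in Rps3a1, a gene for a small subunit protein, had log2 fold changes of 2.84 (adjusted p = 0.0227) and 2.02 (adjusted p = 0.0451). Snord73a was at 5.43 to 117.8 CPM in NS and at 97.9 to 631.5 in LPS libraries, with the highest value of each condition in Eµ-deficient cells. Gm25878 in Zfas1 passed at 1.85 (adjusted p = 0.00991) and Snord53 in Wdr43 at 1.29 (adjusted p = 0.0397). The calls of Rnu73b and Snord53 were each kept in 2 of the 10 fits that left out 1 library, that of Rnu73b without the second wt LPS or second 3′RR-deficient LPS library and that of Snord53 without either Eµ-deficient library. That of Snord73a was lost without the first wt LPS, the first 3′RR-deficient NS or either Eµ-deficient library.

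Among those that fell were 2 of the 3 RNAs of Rpl17, a gene for a large subunit protein. Gm23301 was at 635.9 and 1438 CPM in wt NS, 431.4 and 556.0 in 3′RR-deficient NS and 638.8 in Eµ-deficient NS cells, against 143.4 and 170.8, 187.3 and 105.4, and 375.0 with LPS. No LPS library reached any NS library. It changed by -1.95 in log2 (SE 0.42, adjusted p = 0.0160), a call lost without either wt LPS or the second 3′RR-deficient LPS library. Snord58b of the same host changed by -2.31 (SE 0.43, adjusted p = 0.00991) and Gm22354 (chr14:52069300-52069369), which shares most of its sequence, by -2.36 (SE 0.43, adjusted p = 0.00988). The third RNA of Rpl17, Gm26202, had a value of -1.17 (SE 0.41, adjusted p = 0.104), with the Eµ-deficient LPS library (923.9 CPM) above its NS library (849.9 CPM). Groups without overlap in the direction of a fall were met in 4 of the 107, against 3.01% of all rows.

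Gas5 held RNAs that went in opposite directions. Gm22489 was at 4366 and 6398 CPM in wt NS, 6128 and 3696 in 3′RR-deficient NS and 8029 in Eµ-deficient NS cells, and at 2286 and 1792, 1844 and 1202, and 3398 with LPS. The NS libraries all lay above the LPS libraries, with a change of -1.48 in log2 (SE 0.34, adjusted p = 0.0224). This call was lost without the second wt LPS, the first 3′RR-deficient NS, or any 3′RR-deficient LPS or Eµ-deficient library, and it held under 2 of the 5 scalings. A row annotated as Mir5117, typed as a snoRNA in the table, lies in another Gas5 intron and changed by 1.88 (SE 0.43, adjusted p = 0.0209), a call lost without the second wt LPS or the second 3′RR-deficient LPS library. It was at 61.4 and 46.1 CPM in wt NS and 126.4 and 262.3 in wt LPS cells, at 140.7 and 41.6 against 473.6 and 474.4 in 3′RR-deficient cells, and at 386.5 against 716.3 in Eµ-deficient cells. Within a library the log2 ratio of Mir5117 to Gm22489, which no scaling changes, averaged -5.91 ± 1.05 (SD, n = 5) in NS libraries, against -2.50 ± 1.07 (SD, n = 5) in LPS libraries. The LPS ratios ran from -4.18 to -1.34 and the NS ratios from -7.12 to -4.38, given without a test since the pair was chosen for its opposite directions. The other 7 RNAs of Gas5 did not pass, with values from -1.06 (Gm25789) to 1.32 (Snord78).

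The remaining falls include Snord85 (-2.10, SE 0.42, adjusted p = 0.0131), and Snord111 of the splicing factor gene Sf3b3 (-1.77, SE 0.30, adjusted p = 0.00729). Snord4a of Rpl23a changed by -1.83 (SE 0.32, adjusted p = 0.00787), and the other RNAs of this host, Snord42a and Snord42b, had values of -0.55 and -0.37 and did not pass. Snord1a, Snord1b and Snord1c of the non-coding gene 1810032O08Rik fell by 1.48, 1.52 and 1.52 on the log2 scale (adjusted p from 0.0138 to 0.0436), and Gm24253, a relative of Snord1b and Snord1c, by 1.42 (adjusted p = 0.0173). With 1 library left out Snord1a was called in 3 of 10 fits, Gm24253 in 5, Snord1c in 7 and Snord1b in 8, and all 4 calls were lost without either Eµ-deficient library and under 3 of the 5 scalings. The call of Snord85 was also lost without either Eµ-deficient library. Of 12 RNAs in ribosomal protein genes 3 rose and 4 fell, of 53 in other protein-coding genes 6 and 6, of 23 in non-coding genes other than Gas5 1 and 4, and of 10 without an annotated host 1 and 4.

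**Figure D4:**
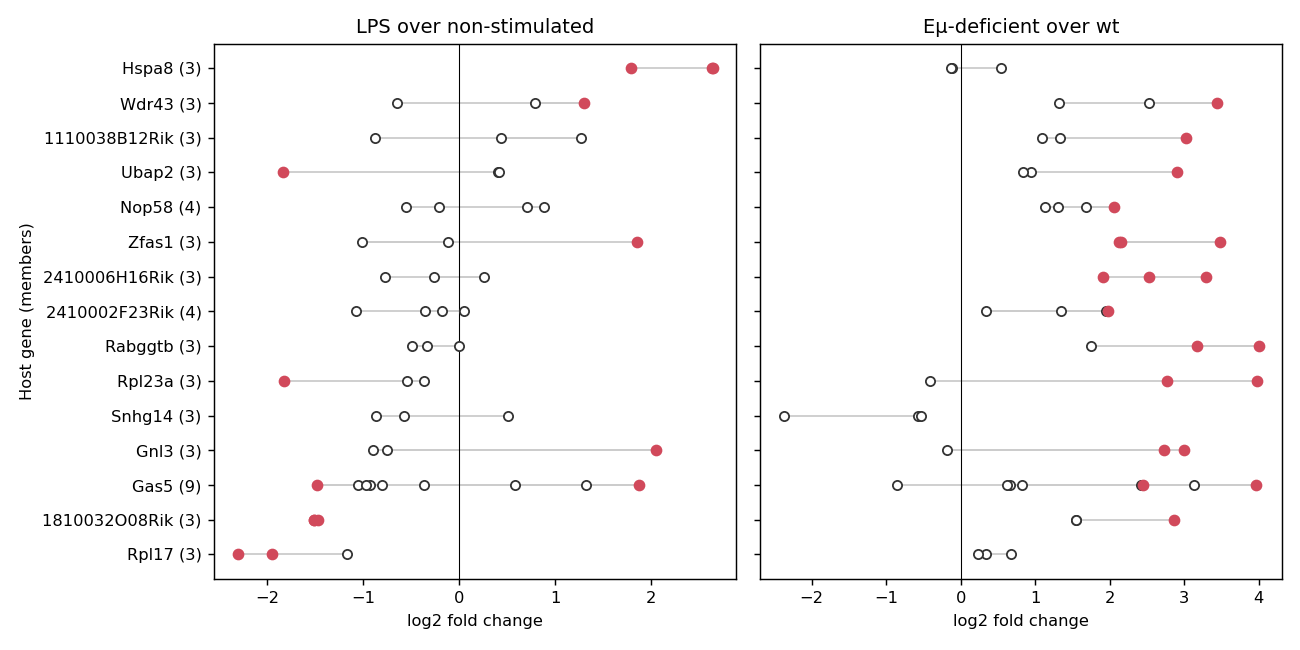
Rows are host genes with 3 or more short snoRNAs (1 such host is left out), each point is 1 RNA at its log2 fold change for LPS over NS (left) and Eµ-deficient over wt (right), filled where the adjusted p was under 0.05, and lines join RNAs of a host. Left, the Hspa8 points all lie above 0, and those of Rpl17 and 1810032O08Rik below 0, while the Gas5, Gnl3 and Zfas1 points lie on both sides.

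Within a single genotype no short snoRNA was called by edgeR with group means and TMM, a count that other settings changed. In wt cells 0 of 107 were called by edgeR (0% of all rows), 31 had an unadjusted p under 0.05 (503 of all rows), and the DESeq2 Wald test called 12 (142 of all rows). The smallest p belonged to Snord58b (-2.97, SE 0.68, adjusted p = 0.197), followed by its relative Gm22354 (adjusted p = 0.197) and Gm23301 (-2.72, SE 0.67, adjusted p = 0.199). With the 3′RR deleted 0 of 107 were called (0% of all rows), 36 had an unadjusted p under 0.05 (462 of all rows) and DESeq2 called 18 (135 of all rows). There edgeR called 3 with total counts (17 of all rows) and 3 with factors from microRNA rows (25 of all rows). There the smallest p belonged to Snord14e (2.36, SE 0.55), Snord14d (3.53, SE 0.86) and Snord14c (3.54, SE 0.86), each with an adjusted p of 0.282. In wt the U14 values were 1.91 for Snord14c (adjusted p = 0.430) and 1.23 for Snord14e (adjusted p = 0.444). The difference between the responses of both genotypes was called for 0 of the 107 (0% of all rows) by edgeR and by DESeq2, and 2 had an unadjusted p under 0.05, Gm24339 and Snord99. Snord99 of Snhg12 had a response larger by 2.10 in 3′RR-deficient cells (SE 0.91, adjusted p = 1), and Gm22589 of Ddx39b, with the next p, by 1.48 (SE 0.73, adjusted p = 1). Gm24339 had between 0 and 43 counts in the libraries of these genotypes, so no size is given.

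The levels of microRNAs of other cell types moved with LPS. The summed level of 3 of 3 listed erythroid microRNAs was 1505 to 9239.7 CPM in NS and 64.3 to 1825 CPM in LPS libraries, of 2 of 2 myeloid ones 288.3 to 5871 and 38.3 to 261.8, and of 3 of 3 endothelial and stromal ones 114.9 to 942.9 and 35.1 to 430.0. The 4 microRNAs listed for B lymphocytes were at 40582 to 213268 CPM in NS and 54447 to 81197 in LPS libraries. Their sum was 213268 and 166814 CPM in the first wt and 3′RR-deficient NS libraries but 42946 and 40582 in the second. The 3 brain microRNAs, listed as a contrast, were at 516.1 to 2104 and 449.2 to 1310 CPM, and miR-124-3p, the most specific of them, was at 0 in every library. The part of these cells in the snoRNA values was not tested.

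Next, 3′RR-deficient cells were set against wt cells to see whether short snoRNAs depend on this region. Over both conditions 0 of 107 passed by edgeR, against 0.022% of all rows, and 2 had an unadjusted p under 0.05. The log2 fold changes of 3′RR-deficient over wt lay between -1.64 and 1.29 with a median SE of 0.45, so that changes of about that size cannot be told from the spread. Without LPS 0 passed (0% of all rows) with 1 unadjusted p under 0.05, and with LPS 0 passed (0%) with 0 unadjusted p under 0.05. DESeq2 called 0 in each of these comparisons.

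The RNAs with the smallest p over both conditions were Gm23663, Mir5117 and Gm22348. Gm23663 of Rptor, an mTORC1 subunit gene, was at 6.16 and 8.02 CPM in wt NS against 15.2 and 10.9 in 3′RR-deficient NS cells, and at 2.65 and 6.24 against 4.64 and 16.0 with LPS (1.06, SE 0.45, adjusted p = 1). Mir5117 had a value of 1.05 (SE 0.46, adjusted p = 1). Gm22348 of Snhg14, the imprinted host of brain snoRNA clusters, had a value of -1.64 (SE 0.80, adjusted p = 1), with 52.9 CPM in the first wt NS library and 1.60 in the second. Without LPS the smallest p belonged to ENSMUST00000157681, Gm22348 (-2.61, SE 1.18, adjusted p = 1) and Gm24339. ENSMUST00000157681 had 56 and 4 counts in the wt and 0 and 3 in the 3′RR-deficient NS libraries, and Gm24339 6 and 19 against 2 and 0, so no fold is given. With LPS they belonged to Snord123 (2.03, SE 0.97), Gm22589 (1.02, SE 0.52) and Gm25809 (1.05, SE 0.54), each with an adjusted p of 1.

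Ratios of same-numbered libraries differed between the pairs. Over the 107 RNAs the 3′RR-deficient level divided by the wt level had a median log2 of -0.05 between the first and -0.53 between the second NS libraries, and 0.34 and 0.00 between the first and second LPS libraries. The ratio was above 0 for 50 and 13 RNAs in the NS pairs and for 76 and 53 in the LPS pairs.

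The same question was put for the Eµ enhancer. In Eµ-deficient cells 32 of 107 were higher than in wt (29.9%) and 0 were lower, against 3.32% and 0.0878% of all rows, and 4.07% higher among rows with 100 counts or more. The median log2 fold change was 1.44, against -0.11 over all rows. Of 209 longer snoRNA rows 11 were higher and 1 lower with a median of 0.83, and of 978 microRNA rows 29 were higher and 3 lower with a median of -0.01. The comparison rests on 1 library in each condition, and both may hold RNA of the same mice. In the additive fit edgeR's spread comes from all libraries, but no Eµ-deficient pool was repeated within a condition. Of the 107 RNAs 3 (Gm23561, Gm22447 and Gm24568) had fewer than 100 counts in the 8 other libraries together and met the rule through the Eµ-deficient ones, and none of the 3 was called.

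Snord72, in an intron of the large subunit protein gene Rpl37, had the largest difference. The NS libraries had 120.9 and 75.8 CPM for wt, 193.4 and 61.8 for the 3′RR deletion and 4497 for the Eµ deletion. With LPS it was at 33.9 and 35.5, 41.8 and 32.3, and 984.6. The Eµ-deficient library was 45.7 times the wt mean without and 28.4 times with LPS, a log2 difference of 5.18 (SE 0.52, adjusted p = 0.00101). Gm24123 ran from 20.2 to 66.4 CPM in the other NS libraries against 999.0, and from 10.2 to 17.1 against 272.4 with LPS (4.73, SE 0.50, adjusted p = 0.00101). Snord45b of Rabggtb, whose RNAs guide methylation of 18S ribosomal RNA, was at 8.42 to 108.4 CPM against 1763, and at 33.1 to 78.6 against 546.7 (4.001, SE 0.70, adjusted p = 0.00670, lost without the Eµ-deficient NS library). Snord4a was at 32.2 to 73.9 CPM against 851.1, and at 14.4 to 16.1 against 254.2 (3.97, SE 0.42, adjusted p = 0.00101). For these 4 RNAs the Eµ-deficient libraries lay above all 8 others also across conditions.

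The difference was spread over many hosts. Each of the 32 called RNAs was above the wt mean in both conditions, as were 83 of all 107, while 8 were below it in both. Both Eµ-deficient libraries lay above all 8 others for 46 of the 107, against 6.68% of all rows, and above the 4 others of their own condition in both conditions for 65, against 10.8%. The 3 RNAs of Zfas1 (Gm23201, Snord12 and Gm25878) and the 3 of 2410006H16Rik (Snord49a, Snord49b and Snord65) were all called, with values from 1.91 to 3.48. Gm23201 was called under 4 of the 5 scalings, Snord12, Gm25878, Snord49b and Snord65 under 3 and Snord49a under 2. The calls of Snord49a and Gm25878 were also lost without either wt LPS library. In Rabggtb, Gnl3 and Rpl23a 2 of 3 were called. In Gas5 Snord80 (3.96, SE 0.48, adjusted p = 0.0015) and Mir5117 (2.45, SE 0.54, adjusted p = 0.0266) were called. The call of Mir5117 was lost when any single wt or Eµ-deficient library was left out, and that of Snord69 in Gnl3 when any of these or either 3′RR-deficient LPS library was left out. Snord80 was at 326.3 to 522.5 CPM in the other NS libraries against 7619.7, and at 126.0 to 289.9 against 2663 with LPS.

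Other RNAs of these hosts did not pass. Gm23212 of Gas5 had a value of -0.85 (SE 0.82, adjusted p = 0.705), Snord42a of Rpl23a -0.41 (adjusted p = 0.795) and Gm24916 of Gnl3 -0.18 (adjusted p = 0.912). The U14 copies of Hspa8 had values of -0.12, -0.13 and 0.54, and the 3 RNAs of Rpl17 from 0.23 to 0.67, and none passed. The lowest values were those of Snord123 (-3.46, SE 0.99, adjusted p = 0.0930) and Gm22348 (-2.37, SE 1.05, adjusted p = 0.338). Snord123 had 11 and 7 counts in the Eµ-deficient libraries against 41 to 197 in the other 8.

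**Figure D5:**
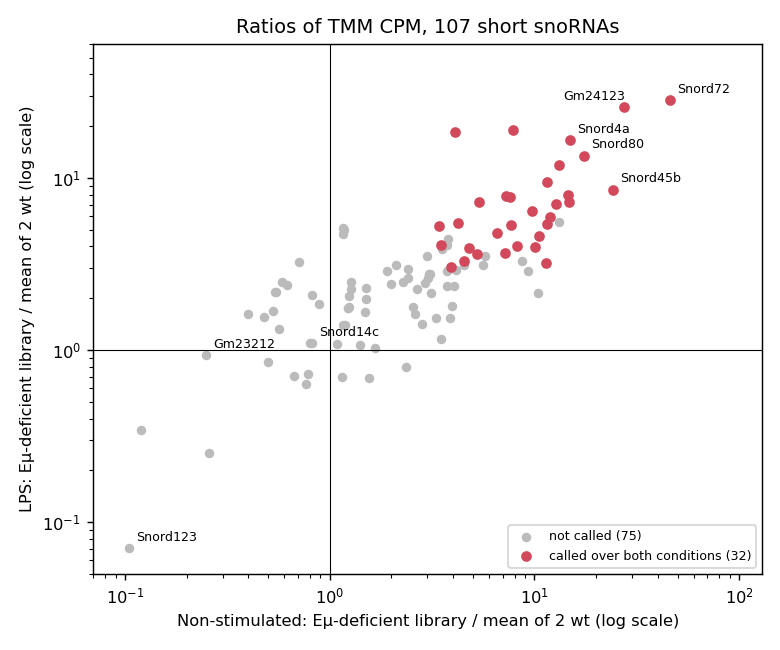
Each point is 1 of the 107 short snoRNAs, with the CPM of the Eµ-deficient library divided by the mean of the 2 wt libraries, NS on the horizontal and LPS on the vertical axis, both log scaled, and red where the difference passed over both conditions (32). Most points (83) lie above 1 on both axes, with Snord72 at 45.7 and 28.4 at the far end.

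Library composition moved with this difference. MicroRNA rows took 60.2% and 51.4% of the Eµ-deficient counts and 63.9% to 82.1% in the other libraries. Of the counts outside the microRNA class, short snoRNAs took 23.4% in the Eµ-deficient NS library against 13.6% to 21.2% in the other NS libraries, and 16.4% in the LPS one against 12.5% to 21.4%. With factors from snoRNA rows, which set the typical snoRNA to no change, 3 of the 32 calls remained (Snord72, Gm24123 and Snord4a), of 10 calls over all rows. With total counts 26 were higher and with factors from microRNA rows 34, and 0 were lower in either, with 96 and 145 calls over all rows. Erythroid microRNAs summed to 9239.7 and 1825 CPM in the Eµ-deficient NS and LPS libraries, each the highest of its condition, and myeloid ones to 5871 and 261.8, again the highest. Endothelial and stromal ones summed to 614.3 CPM in the Eµ-deficient NS library, within the range of the other NS libraries, and to 430.0 in the LPS one, the highest with LPS. Their part in the result was not tested. Without the Eµ-deficient NS library 11 RNAs were called and without the LPS one 12, and without both second NS libraries 45, with 68, 31 and 327 calls over all rows against 155 with all libraries.

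Base composition and length had weak correlations with both fold changes. Across the RNAs with a sequence (n = 101) GC content and the log2 fold change had Pearson's r of -0.08 for LPS and -0.09 for Eµ, and length (n = 107) 0.21 and 0.05, as descriptions over RNAs of the same libraries.

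The pathway lists were matched by symbol alone, so RNAs of the same hosts that carry a Gm or other name were missed. Of 10 RNAs listed for Gas5 introns 3 matched by symbol (Snord80, Snord47 and Snord78), with 0 called for LPS, 1 for Eµ and median values of 0.58 and 2.43. By position 9 RNAs lay in Gas5, with 1 higher and 1 lower for LPS (median -0.80) and 2 called for Eµ (median 2.42), so the LPS medians of the symbol matches and of the whole host differ in sign. Of 7 listed for introns of nucleolar protein genes Snord11 and Snord70 of Nop58 matched, with 0 and 1 called and medians of -0.38 and 1.87. By position 4 RNAs lay in Nop58, with the same counts of calls and medians of 0.25 and 1.49. Of 5 guides of U6 small nuclear RNA only Snord7 matched, at 1.31 to 10.3 CPM without and 5.15 to 59.0 with LPS (2.55, SE 0.72, adjusted p = 0.0509). None of the RNAs listed for Rpl13a introns (4), Snhg1 introns (8) and imprinted families (6) matched a member by symbol, and these lists were not analysed here. By position 3 members (Gm22348, Gm25499 and Gm23933) lay in the imprinted host Snhg14, and 0 of them were called for LPS or Eµ.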

How the data were processed

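Read counts, whole numbers per small RNA row and library, were deposited by the authors without normalization. Per the labels, libraries came from a small RNA kit with 17 PCR cycles, were size-selected from 140 to 160 nt and were read with 75 nt, so counts of snoRNA rows are counts of fragments. The submitters' processing notes name cutadapt 1.2.1, Bowtie2 and mm10. The counting program is not given in the sources used here. Depth was 3482540.0 to 18144016 counts. Intervals cover counting error only, since reads carry no molecular identifiers.

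All 6968 rows were fitted with edgeR 4.0.16 in R 4.3.3: TMM scaling, filterByExpr by group (4554 rows kept), two-sided quasi-likelihood tests with Benjamini-Hochberg adjustment over all rows, with 0.05 as threshold. Comparisons over conditions or genotypes used additive terms (biological coefficient of variation 56.1%), the others a mean per group (58.4%). SE is the absolute log2 fold change divided by the square root of F. Shares were compared by exact permutation. P-values of the fits with a mean per group measure the spread between pools of mice. In the additive fits the spread also holds differences of the LPS response between genotypes. Eµ-deficient cells have no repeated pool within a condition. Permutation of shares mixes genotypes or conditions within each arm. Positions, hosts and sequences came from GENCODE M21 (GRCm38), which held 104 of the 107 transcripts.

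The members, lists and tests were chosen with earlier results of these data known. Named were called members with at least 10 CPM in the higher group and no overlap between groups, up to 10 risen and 10 fallen for LPS and 4 and 4 elsewhere, the 3 smallest p where none was called, and the 8 most abundant. For LPS 11 members met this rule. The list of erythroid and other microRNAs served as a check of the cell type. Alternatives were 4 other scalings, other filters, DESeq2 1.42.0, replicate blocks, fewer libraries and other member rules. All columns of the table belong to these samples. 1 host gene of short snoRNAs is not reported here.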

Additional observations from a re-analysis of the deposited data

Results flagged for a closer look

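A signal lies outside the rows analysed above. Of 459 snoRNA transcripts of 100 nt or less in GENCODE M21, 152 have a row of their own in the table, and 50 lie inside 20 rows that the table lists as piRNA clusters, all of which are given on the minus strand, so that 20 of the 50 are on the row's strand. The row piRNAclusterDB_2182 (chr19:8720116-8729994, mm10) covers Snhg1 with 7 such transcripts and held 3861096 counts, 30.1% of all counts in piRNA cluster rows. It took 2.28% to 5.26% of each library, and its log2 value was -0.71 (SE 0.50, adjusted p = 0.405) for LPS and 0.19 (SE 0.68, adjusted p = 0.932) for Eµ-deficient over wt. The row piRNAclusterDB_1020 (chr16:23104096-23115231) covers Snord2 and held 748330 counts (-1.42, SE 0.48, adjusted p = 0.0887 for LPS). How many of these reads come from the snoRNAs cannot be read from the table.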

How the results depend on the processing

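For LPS over all genotypes the 31 calls became 19 in the 8 libraries of wt and 3′RR-deficient cells and 15 to 30 when 1 library was left out. Over all rows the 367 calls became 204 in the 8 libraries and 192 to 371 with 1 library left out. The lowest were 15 without the Eµ-deficient NS library (197 over all rows), 15 without the Eµ-deficient LPS library (192), 17 without the first 3′RR-deficient NS library (222) and 18 without the second wt LPS library (203). In each of the 10 leave-one-out fits 11 of the 31 were called. For Eµ-deficient over wt the 32 calls became 3 with TMM from snoRNA rows, 45 by DESeq2 and 11 to 36 when 1 library was left out (11 without the Eµ-deficient NS and 12 without the Eµ-deficient LPS library), and 9 were called in each of these 10 leave-one-out fits. Replicate numbers are shared by the groups, but no label says that they mark a common mouse, day or batch. The replicate differences over all rows correlated between the NS groups (r = 0.67) and the LPS groups (r = 0.34) but not between NS and LPS groups (r from -0.22 to -0.01), and over the short snoRNAs alone r between NS and LPS groups ran from -0.25 to 0.32. With the replicate block 35 RNAs were called for LPS and 26 for Eµ, with the crossed replicate block, added after the data were seen, 38 and 44, and with the replicate block within culture condition 56 and 53. Over all rows these gave 498 and 134, 744 and 259, and 1158 and 385 calls, against 367 and 155 without a block. The Eµ calls by DESeq2 were 242 over all rows. The block within condition gave 21 calls for LPS in wt and 17 in 3′RR-deficient cells, against 0 and 0, and it raised calls over the whole table to 1158 for LPS over all genotypes (367 without a block), 287 in wt and 201 in 3′RR-deficient cells. For LPS in wt 4 were called without a filter (176 over all rows) and 12 by DESeq2 (142). In 3′RR-deficient cells 3 were called with total counts (17 over all rows), 3 with TMM from microRNA rows (25), 6 without a filter (170) and 18 by DESeq2 (135). Comparisons of 3′RR-deficient with wt cells and the difference of responses had 0 calls in each alternative run. With 1 member of each family with shared sequence, 22 were called for LPS and 28 for Eµ. The cause of these changes was not tested. The difference in summed share lay between -1.33 and 0.375 percentage points for LPS minus NS and between -0.906 and 0.768 for 3′RR-deficient minus wt when 1 library was left out. No named log2 fold change turned its direction where it was called.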

Other observations

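The rows listed as piRNA clusters split by their content in the Eµ-deficient comparison. Of the 20 with a short snoRNA inside, 9 were higher and 0 lower than in wt, with a median log2 fold change of 2.09, and of the other 2291 tested 7 were higher and 0 lower, with a median of -0.30. The row with Snord68 inside, piRNAclusterDB_1874, had a value of 4.78 (SE 0.55, adjusted p = 0.00143), near that of Snord72, and the row with Snord95, Snord96a and Gm25296 inside, piRNAclusterDB_36, had 3.29 (SE 0.67, adjusted p = 0.0168). For LPS 0 of the 20 rose and 1 fell. The split was chosen after the values of the short snoRNAs were seen.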
